A study of Saccharomyces cerevisiae with 3 samples.

Results

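The genes described here were *HXK2*, *PGK1*, *GPM1*, *CDC19*, *PDC1* and *ADH1*, which encode enzymes on the route from glucose to ethanol in budding yeast. They were taken from a list of 8 genes of glycolysis and fermentation by 1 criterion, a row in the study's table of transcription start sites (TSS) and polyadenylation sites (pAS), of which the first 1999 rows were used here. The criterion kept 6 of the 8 genes. *HXK1* and *GLK1*, the other glucose-phosphorylating enzymes on the list, were not analysed here. After genes with more than 1 row were left out, 1971 genes with a single TSS served as the comparison, and no measured value was used to choose the 6.

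The study cut DNA with micrococcal nuclease (MNase), and 3 of its libraries were read here. The naked DNA library came from wild-type BY4741 cells, whose DNA had been freed of protein before digestion, and was sequenced as a single library. The 2 chromatin libraries came from *dst1∆*, a BY4741 derivative that lacks the elongation factor TFIIS. Both strains carry the *his3Δ1*, *leu2Δ0*, *met15Δ0* and *ura3Δ0* alleles, and the cells were fixed with formaldehyde in exponential growth. Nothing in the labels says whether the *dst1∆* replicates came from separate cultures. Wild-type chromatin was not analysed here, so nothing below separates the effect of the *dst1* deletion from that of chromatin itself.

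MNase cuts linker DNA between nucleosomes, so that fragments of nucleosomal size mark DNA that was wrapped. The enzyme also prefers some sequences over others, and on naked DNA the fragments of that size come from stretches it cuts poorly. Glycolytic genes are among the most strongly expressed genes of a yeast cell growing on glucose, and transcription by RNA polymerase II displaces histones from such genes. Many of their promoters are bound by Rap1 and Gcr1, activators of glycolytic transcription.

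The naked DNA library held 16618987 nuclear reads, *dst1∆* replicate 1 held 10776646 and replicate 2 held 9047739, which correspond to coverages of 49.7-fold, 32.2-fold and 34.6-fold. Naked DNA and replicate 1 shared a read length of 36 bp, a sequencing instrument and, by the study's account, a run. Nearly all reads of replicate 2 spanned 46 bp in the files and came from another instrument. The longest stretch that had no read in either *dst1∆* replicate but at least 50 reads in naked DNA lay on chromosome VII, where *DST1* is located. It was 531 bp long and held 631 naked DNA reads. The signal at a base was the number of fragment centres within the 81 bp around it, scaled to a genome mean of 100 in each library. In the *dst1∆* libraries a low signal could mean fewer nucleosomes or fewer fragments of the selected size, which cannot be told apart.

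The 6 genes lay on different chromosomes. On the sacCer2 coordinates of the site table, *HXK2* (YGL253W), the main hexokinase of cells grown on glucose, ran from 23897 to 25601 on chromosome VII. *PGK1* (YCR012W), phosphoglycerate kinase, ran from 137674 to 139058 on chromosome III. *GPM1* (YKL152C), phosphoglycerate mutase, was read on the other strand from 164456 to 163480 on chromosome XI. *CDC19* (YAL038W), the pyruvate kinase that makes pyruvate in glycolysis, ran from 71679 to 73447 on chromosome I. *PDC1* (YLR044C), the major pyruvate decarboxylase, ran from 234213 down to 232285 on chromosome XII. *ADH1* (YOL086C), the alcohol dehydrogenase that reduces acetaldehyde to ethanol, ran from 160638 down to 159470 on chromosome XV. Gene bodies, from TSS to pAS and hence with their untranslated ends, were thus between 977 and 1929 bp long.

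Several features were shared that the criterion did not use. All 6 were on the study's list of genes with a TATA box in the core promoter, which held 19.2% of the 1971 genes. Rap1 binding was listed for 5 of the 6, all but *HXK2*, against 21.1% of all genes, and Abf1 binding for 4 of the 6, against 21.6%. The list of highly transcribed genes held 5 of the 6, again without *HXK2*, and 6.75% of all genes. A fragile −1 nucleosome, lost on stronger digestion, was listed for 5 of the 6 and for 36.1% of all genes, and *GPM1* was instead on the list of stable −1 nucleosomes. None was listed as bound by Reb1. Some of these lists were used in part, and no test of overlap was made.

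The surroundings of the promoters differed. The TSS of *HXK2* coincided with the pAS of *FZF1*, so that its promoter window reached into this tandem neighbour. The nearest upstream sites were the pAS of *NNR2* at 384 bp for *GPM1*, the pAS of *STU2* at 584 bp for *PDC1*, and the TSS of *ADP1* at 652 bp for *PGK1*. *ADH1* and *CDC19* had no listed site within 800 bp upstream, the nearest being at 1516 and 2068 bp. Past the 3′ end, the pAS of *MHF1* lay 28 bp from that of *ADH1* and the pAS of *POL4* lay 116 bp from that of *PGK1*. The TSS of *TRX1* lay 192 bp past the pAS of *PDC1*.

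Digestion of naked DNA already gave strong signals over these gene bodies. The median over the 6 genes was 295 in naked DNA, 205 in *dst1∆* replicate 1 and 89.8 in replicate 2, whereas all genes had medians of 92.9, 97.2 and 105. All 6 genes were above the all-gene median in naked DNA, 4 in replicate 1 and 2 in replicate 2. The strong gene body signal was therefore a feature of the naked DNA and of replicate 1, and at the median of the 6 genes replicate 2 did not share it.

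**Figure D1:**
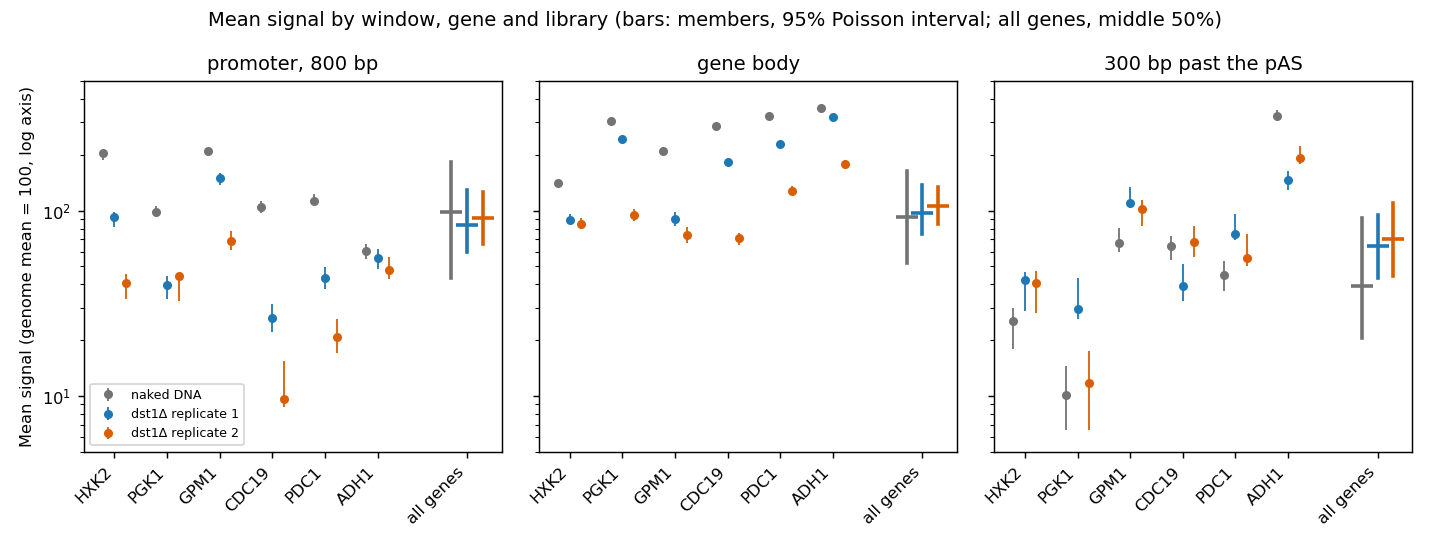
Mean signal (log axis, genome mean 100) in the promoter of 800 bp, the gene body and the 300 bp past the pAS, for each gene in naked DNA (grey), dst1∆ replicate 1 (blue) and replicate 2 (orange). Bars on the genes are 95% Poisson intervals of the fragment count in the window and need not be centred on the points. The marks at the right give the median and middle 50% of 1971 genes. In the gene body panel every gene has its highest value in naked DNA, and the replicate 2 values of PGK1 (94.7) and CDC19 (71.4) lie far below those of replicate 1 (242 and 182).

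At the entry of the pathway, the gene body of *HXK2* had signals of 141 in naked DNA, 89.4 in replicate 1 and 85.0 in replicate 2. Both replicates lay below naked DNA and close to each other. *PGK1*, which yields the first ATP of the lower part of glycolysis, had a gene body signal of 306 in naked DNA, 242 in replicate 1 and 94.7 in replicate 2. *GPM1*, the next enzyme, had 210.0, 89.9 and 73.7 in the same order. *PGK1* thus had 1 chromatin library near naked DNA and 1 near the genome mean, while at *GPM1* both chromatin libraries were under the genome mean.

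*CDC19*, which completes glycolysis, had a gene body signal of 285 in naked DNA, 182 in replicate 1 and 71.4 in replicate 2. The gene body of *PDC1*, the first step of fermentation, had 325, 229 and 128. *ADH1*, the last step, had 359 in naked DNA, 319.7 in replicate 1 and 179 in replicate 2, the highest value of the 6 genes in every library. It exceeded 94.8% of all genes in naked DNA, 95.8% in replicate 1 and 90.7% in replicate 2. In all 6 genes the order was naked DNA, replicate 1, replicate 2.

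With a difference counted where both *dst1∆* replicates were at least 2-fold from naked DNA on the same side (pseudocount of 1), 1 of the 6 gene bodies was below naked DNA, *GPM1*, and this held for 1.01% of all genes. None of the 6 was above naked DNA, and 9.44% of all genes were. The log2 ratio to naked DNA at *GPM1* was -1.36 ± 0.20 (SD, n = 2). With 1 read per strand position it was -0.50 and none of the 6 was below, whereas with scaling to the genome median all 6 were, as were 25.4% of all genes. At the other gene bodies the mean ratio lay between -0.59 at *ADH1* and -1.32 at *CDC19*, with SDs of 0.59 and 0.95. The replicates were at least 2-fold apart in 2 of the 6 gene bodies, *PGK1* and *CDC19*, against 4.01% of all genes. At both genes replicate 1 was the higher.

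The profiles along the genes show where these fragments came from. The naked DNA signal of each gene was made of a few tall blocks, and its first called peak past the TSS stood between 127 bp at *HXK2* and 380 bp at *PDC1*. The *HXK2* peak was no tall block, since its height of 20.1 was at the limit of 20 for a call. The next peak of *HXK2*, at 306 bp, had a height of 489. In the first 200 bp of the gene body, the median over the 6 genes was 57.8 in naked DNA, near the 51.5 of all genes of at least 600 bp. Between there and 200 bp before the pAS, it was 360 (all genes 98.5). Replicate 1 had 53.4 in the first 200 bp and 247 in the middle, and replicate 2 had 58.2 and 98.5, against all-gene values of 95.9 and 99.4, and of 117 and 106.5. At the median the starts of these genes were therefore low in both chromatin replicates, and the middle was high in naked DNA and replicate 1 alone. *ADH1* was the exception at the start, with 225, 188 and 201.2.

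**Figure D2:**
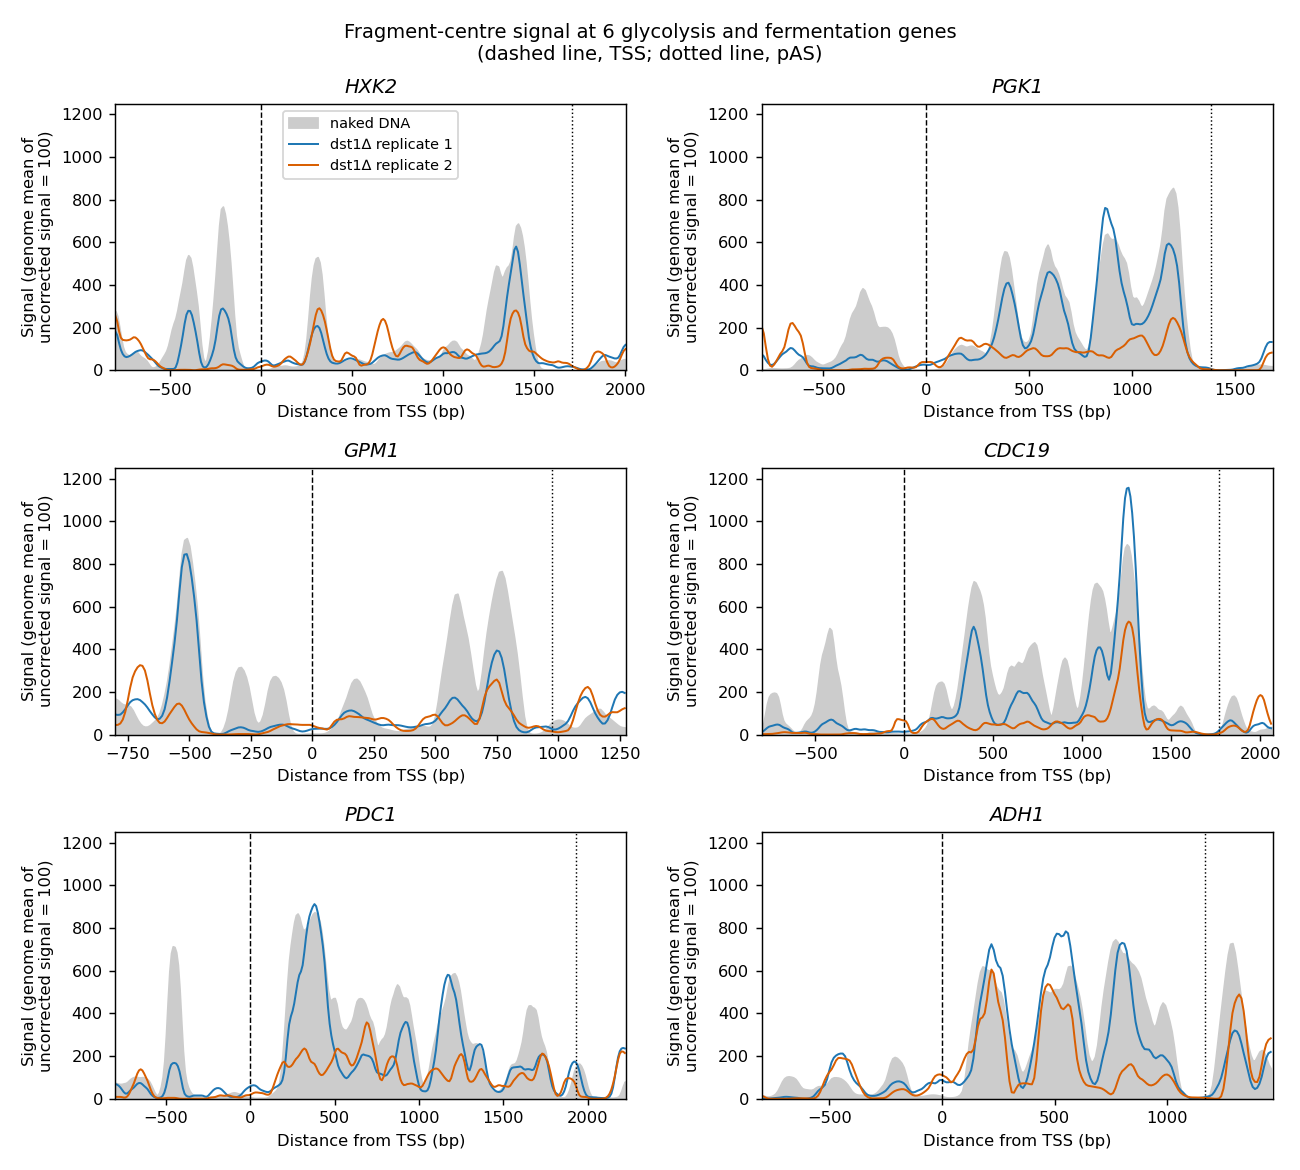
Signal (genome mean 100) by distance from the TSS in bp, from 800 bp upstream to 300 bp past the pAS, in 6 panels for the genes. The grey area is naked DNA, the blue line dst1∆ replicate 1 and the orange line replicate 2. The blue line follows the grey blocks in the gene bodies, and the orange line follows them at single blocks, as at 1251 bp in CDC19.

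The tallest naked DNA block of *HXK2*, 1410 bp downstream of the TSS, reached 719 in naked DNA, 595 in replicate 1 and 274 in replicate 2. At the block 1300 bp downstream, naked DNA had 535, replicate 1 had 139 and replicate 2 had 18.1. Neighbouring blocks of the same gene thus differed in how far they were seen in chromatin. The highest point of replicate 2 in this gene that lay off the naked DNA blocks was at 669 bp, where replicate 2 had 249, replicate 1 had 68.5 and naked DNA had 64.5.

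In *PGK1* the tallest block lay at 1192 bp, with 861 in naked DNA, 595 in replicate 1 and 252 in replicate 2. At 890 bp the signals were 622, 714 and 54.4. The blocks at 589 bp had 631, 487 and 65.7. Replicate 1 carried all 3 of these blocks, and replicate 2 only the one nearest the 3′ end.

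The tallest block of the *GPM1* gene body was 765 bp downstream, with 804 in naked DNA, 385 in replicate 1 and 218 in replicate 2. At 587 bp the values were 726, 176 and 74.8. Both chromatin libraries kept the same single block as their highest point, 752 bp downstream in replicate 1 and 742 bp in replicate 2.

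*CDC19* had its strongest block at 1251 bp, with 898 in naked DNA, 1154 in replicate 1 and 524 in replicate 2. The block at 398 bp had 728, 509 and 18.1, and the block at 1084 bp had 707, 401.04 and 63.5. The position near 1251 bp was the highest of the gene body in all 3 libraries, and the only one of the 3 with over 100 in replicate 2.

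In *PDC1* the block at 380 bp had 876 in naked DNA, 919 in replicate 1 and 168 in replicate 2. The block at 1204 bp had 611, 522 and 147.4. The highest point of replicate 2 was elsewhere, at 692 bp, where it had 383 against 203 in replicate 1 and 423 in naked DNA. In *ADH1*, 774 bp downstream, naked DNA had 747, replicate 1 had 646 and replicate 2 had 56.7, but at 566 bp the values were 647, 737.5 and 456. At 224 bp they were 593, 765 and 664, so among the chromatin libraries the 2 upstream blocks of *ADH1* were high in both replicates and the downstream block in replicate 1 alone.

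The share of the gene body with a signal over 200 sums this up. It was 70.5% of *ADH1* in naked DNA, 56.8% in replicate 1 and 29.6% in replicate 2. In *PGK1* it was 55.7%, 51.0% and 4.2%, in *CDC19* it was 53.5%, 26.2% and 7.5%, and in *PDC1* it was 65.9%, 37.5% and 16.6%. *HXK2* had 21.1%, 9.7% and 11.3%, and *GPM1* had 38.8%, 8.8% and 6.8%. The medians of all genes were 12.9%, 10.5% and 15.0%, so all 6 exceeded the median in naked DNA and 2, *PDC1* and *ADH1*, did so in replicate 2.

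The correlation of the signal between libraries was computed along each gene, from 800 bp upstream to 300 bp past the pAS, as a description over neighbouring bases that are not independent. Between naked DNA and replicate 1, Pearson's r was 0.858 at *HXK2*, 0.909 at *PGK1*, 0.776 at *GPM1*, 0.828 at *CDC19*, 0.838 at *PDC1* and 0.826 at *ADH1*, against a median of 0.639 over all genes. All 6 were above that median. Between naked DNA and replicate 2 it ranged from 0.243 at *GPM1* to 0.602 at *ADH1* (all genes 0.268). The replicates correlated with each other at 0.501, 0.446, 0.390, 0.859, 0.492 and 0.771 in pathway order, against a median of 0.650, so that 4 of the 6 genes were below it. In every gene of the 6 but *CDC19*, replicate 1 was more like naked DNA than like replicate 2.

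**Figure D3:**
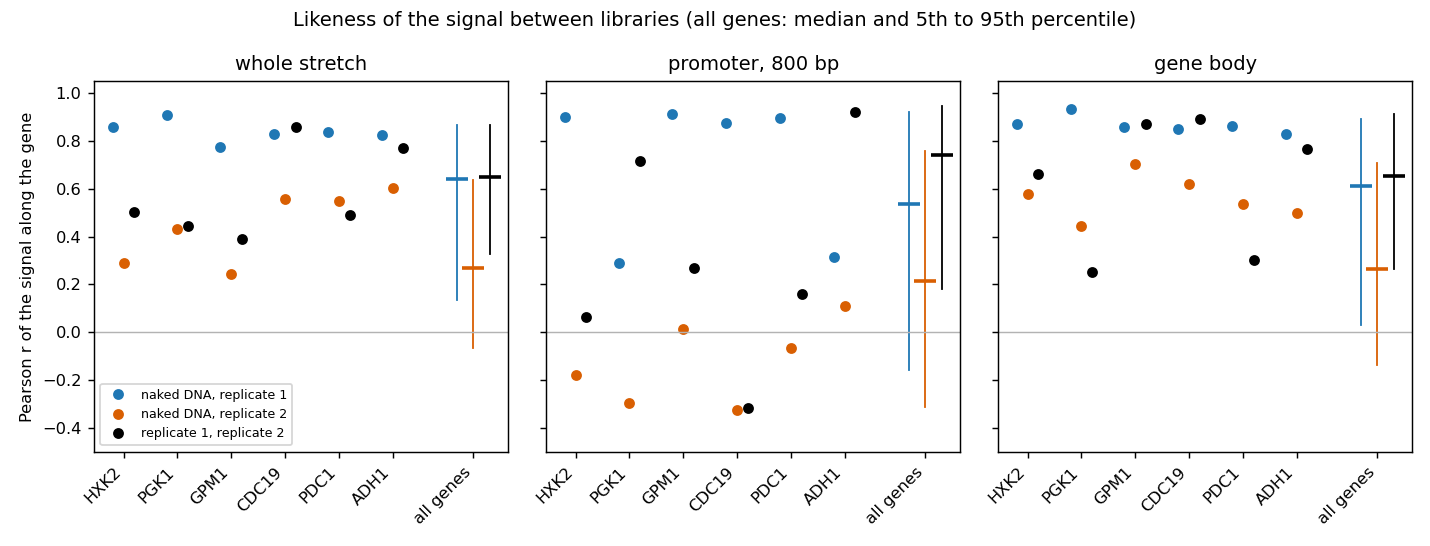
Pearson correlation of the signal along each gene between pairs of libraries (blue, naked DNA and dst1∆ replicate 1; orange, naked DNA and replicate 2; black, both replicates) for the whole stretch, the promoter and the gene body. The marks at the right are the median and the 5th to 95th percentile of all genes. In the promoter panel HXK2, GPM1, CDC19 and PDC1 have values near 0.9 for naked DNA with replicate 1, from 0.876 to 0.911, and values under 0.3 for the replicates.

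Within the gene body alone, the correlation between naked DNA and replicate 1 was between 0.827 at *ADH1* and 0.934 at *PGK1* (all genes 0.610). That between naked DNA and replicate 2 was between 0.442 at *PGK1* and 0.703 at *GPM1* (all genes 0.265). All 6 were above the all-gene median in both. Naked DNA and replicate 1 shared the read length, instrument and run, as given above, and replicate 2 differed in read length and instrument. The part of this in their likeness was not tested and cannot be told apart from other differences between the replicates.

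Promoter signals were next compared over the 800 bp upstream of the TSS. *HXK2* had 204 in naked DNA, 92.4 in replicate 1 and 40.9 in replicate 2. *PGK1* had 98.9, 39.6 and 44.2, and *GPM1* had 209, 149 and 68.7. In these genes of the upper and middle pathway every chromatin value was below naked DNA, and all but the *PGK1* pair differed between replicates.

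*CDC19* had 104 in naked DNA, 26.3 in replicate 1 and 9.62 in replicate 2. The window of the last value held 51 fragment centres, whose 95% Poisson interval on the signal scale was 8.72 to 15.4. The value itself is a mean of the smoothed signal, so the interval is not centred on it. *PDC1* had 113, 43.3 and 20.7, and *ADH1* had 60.3, 55.3 and 47.6. The *CDC19* promoter exceeded those of only 1.42% of all genes in replicate 1 and 0.20% in replicate 2, and *ADH1* was the only one of the 6 with nearly equal signals in all 3 libraries.

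Over the 6 genes the median promoter signal was 109 in naked DNA, 49.3 in replicate 1 and 42.6 in replicate 2, against 97.8, 83.6 and 91.3 over all genes. Both *dst1∆* replicates were at least 2-fold below naked DNA in 4 of the 6 promoters, *HXK2*, *PGK1*, *CDC19* and *PDC1*, where 4.67% of all promoters were. None of the 6 was at least 2-fold above naked DNA, where 9.74% of all promoters were. The count of 4 is above the share of all genes, but it fell to 1, *CDC19* (all genes 1.01%), when only 1 read per strand position was kept. It was 3 without a cap on repeated reads (all genes 9.79%) and 5 with a promoter of 500 bp (all genes 9.18%). The log2 ratios to naked DNA were -2.62 ± 0.96 at *CDC19*, -1.88 ± 0.73 at *PDC1*, -1.71 ± 0.82 at *HXK2* and -1.22 ± 0.11 at *PGK1* (SD, n = 2), and all-gene medians were -0.08 in each replicate. *GPM1* had -1.04 ± 0.78, with a single replicate past 2-fold, and *ADH1* had -0.23 ± 0.15, which turned to 0.06 without a cap on repeated reads.

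The replicates were at least 2-fold apart in 4 of the 6 promoters, *HXK2*, *GPM1*, *CDC19* and *PDC1*, against 14.8% of all promoters. In each of these replicate 1 had the higher value and its profile followed naked DNA, with r of 0.900, 0.911, 0.876 and 0.897. With replicate 2 the same promoters had r of 0.064, 0.268, -0.316 and 0.160, where the median of all genes was 0.741. The value of *CDC19* was the lowest of all 1970 genes with a varying promoter signal, on the 51 fragment centres mentioned above. The other 2 promoters differed from this pattern, since at *PGK1* and *ADH1* the replicates correlated at 0.714 and 0.919 and naked DNA with replicate 1 at 0.290 and 0.315.

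The highest naked DNA points of these promoters were compared between libraries. The *HXK2* promoter had its highest naked DNA point 209 bp upstream, with 774 in naked DNA, 290 in replicate 1 and 31.7 in replicate 2. At *GPM1*, 512 bp upstream, the values were 923, 847 and 95.2. At *PDC1*, 454 bp upstream, they were 713, 166 and 4.5. In replicate 1 these 3 points were all above the genome mean of 100, and in replicate 2 none was, with *GPM1* close to it and *HXK2* and *PDC1* far below.

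At *CDC19* the block 421 bp upstream had 531 in naked DNA, 72.4 in replicate 1 and 0 in replicate 2. At *PGK1*, 307 bp upstream, the values were 405, 72.4 and 6.8. The *GPM1* promoter also held the most repeated reads, since the cap kept only 40.3% of its naked DNA reads and 46.2% of those of replicate 1, but 99.6% of those of replicate 2. In the naked DNA up to 223 reads began at a single position of that promoter.

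At some promoters the chromatin libraries in turn had more fragments than naked DNA. The highest promoter point of replicate 2 at *PGK1* was 648 bp upstream, with 229 in replicate 2, 102 in replicate 1 and 19.2 in naked DNA. At *GPM1*, 701 bp upstream, it was 333, 172 and 56.3. At *ADH1*, 442 bp upstream, it was 184, 213 and 90.6. These 3 positions were high in both replicates relative to naked DNA. That of *PGK1* lay next to the TSS of *ADP1*, 652 bp away, and that of *GPM1* lay beyond the pAS of *NNR2*. At the other genes replicate 1 was under the genome mean at the highest promoter point of replicate 2. The values in the same order were 163, 76.3 and 76.9 at *HXK2*, 141, 80.2 and 98.8 at *PDC1*, and 70.3, 11.7 and 2.75 at *CDC19*.

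A stretch of low signal near the TSS was measured as the run of bases below 50 that held the lowest point of the 300 bp upstream. That point lay at the far edge of the search, 300 bp upstream, at *ADH1* in replicate 1 and at *PGK1* and *PDC1* in replicate 2. In those cases the run was set by the search limit and need not be the low stretch nearest the TSS. In replicate 1 it was 363 bp long at *HXK2*, 351 bp at *PGK1*, 506 bp at *GPM1*, 472 bp at *CDC19*, 380 bp at *PDC1* and 117 bp at *ADH1*, against a median of 167 bp over all genes. In replicate 2 it was 730, 368, 570, 749, 722 and 291 bp, against 170 bp, and that of *CDC19* ran to the edge of the window, so that 749 bp is a minimum. In replicate 2 all 6 were longer than the median and in replicate 1 all but *ADH1*. The naked DNA had stretches of 329, 234, 176, 446, 512 and 222 bp, against a median of 291 bp, so 3 of the 6 were longer than the median there.

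**Figure D4:**
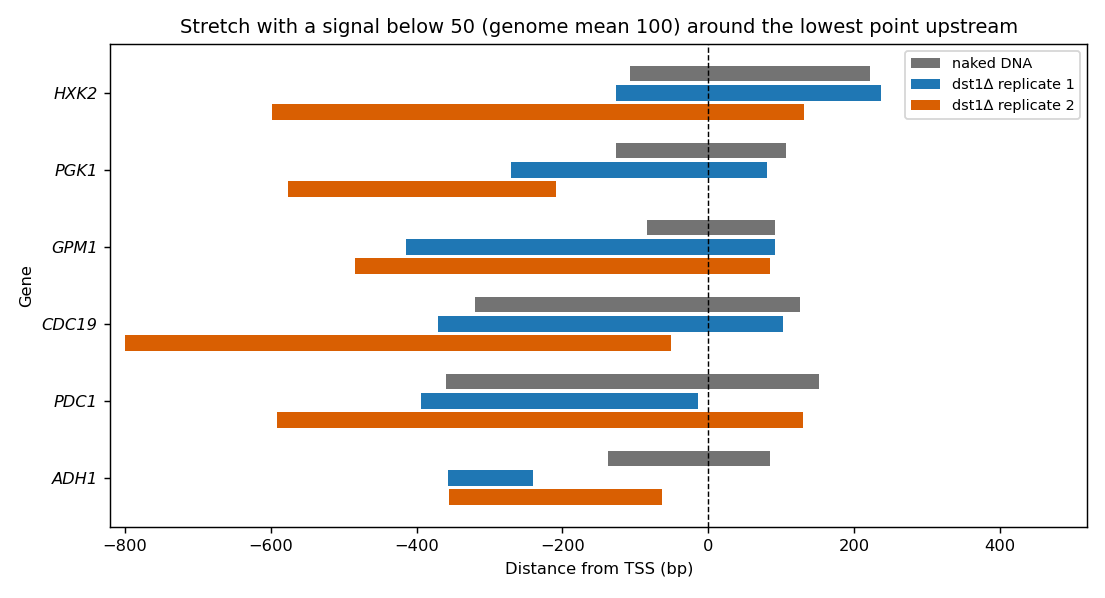
Extent of the stretch with a signal below 50 around the lowest point within 300 bp upstream, by distance from the TSS in bp, for each gene in naked DNA (grey), dst1∆ replicate 1 (blue) and replicate 2 (orange). The longest bars are those of replicate 2 at CDC19 (749 bp, ending at the edge of the window), HXK2 (730 bp) and PDC1 (722 bp), and the shortest dst1∆ bars are those of ADH1 (117 and 291 bp).

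Both replicates placed the low stretch of *GPM1* over nearly the same bases, from -415 to 90 bp in replicate 1 and from -485 to 84 bp in replicate 2. At *HXK2* they ran from -126 to 236 bp and from -599 to 130 bp, so the stretch of replicate 1 ended at the block 209 bp upstream and that of replicate 2 ran through it. At *ADH1* they ran from -357 to -241 bp and from -355 to -65 bp, upstream of the TSS. At *PGK1* they ran from -271 to 79 bp and from -577 to -210 bp and overlapped little, and that of *CDC19* in replicate 2 ended at -52 bp, so these did not all reach the TSS.

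Downstream of the genes, in the 300 bp past the pAS, *HXK2* had 25.3 in naked DNA, 42.3 in replicate 1 and 40.7 in replicate 2. *PGK1* had 10.2, 29.6 and 11.7, and *GPM1* had 66.6, 110.0 and 102. *PGK1* was low in all 3 libraries, and even in replicate 1, where it was highest, it exceeded only 11.1% of all genes.

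*CDC19* had 64.2 in naked DNA, 39.3 in replicate 1 and 67.4 in replicate 2 past its pAS, and *PDC1* had 44.8, 74.5 and 55.3. *ADH1*, where the convergent *MHF1* begins its 3′ end 28 bp away, had 322, 146.8 and 191. It exceeded 95.2% of all genes in naked DNA and 95.1% in replicate 2. Over the 6 genes the medians were 54.5, 58.4 and 61.4, against 39.4, 64.7 and 70.2.

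No member was at least 2-fold below naked DNA in both replicates past the pAS, where 5.73% of all genes were. None was at least 2-fold above, although 28.0% of all genes were. A mean log2 ratio above 0 was found at 4 of the 6, between 0.51 at *PDC1* and 0.82 at *PGK1*. All genes had medians of 0.56 in replicate 1 and 0.72 in replicate 2, and none of the 6 exceeded the median of replicate 2. Of the 4 genes, *HXK2*, *PGK1* and *GPM1* were below 0 with 1 read per strand position. With scaling to the genome median, *HXK2*, *GPM1* and *PDC1* were. The replicates were at least 2-fold apart at 1 of the 6, *PGK1*, against 22.8% of all genes. The 3′ ends were thus the window in which the 6 genes had the fewest differences counted.

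**Figure D5:**
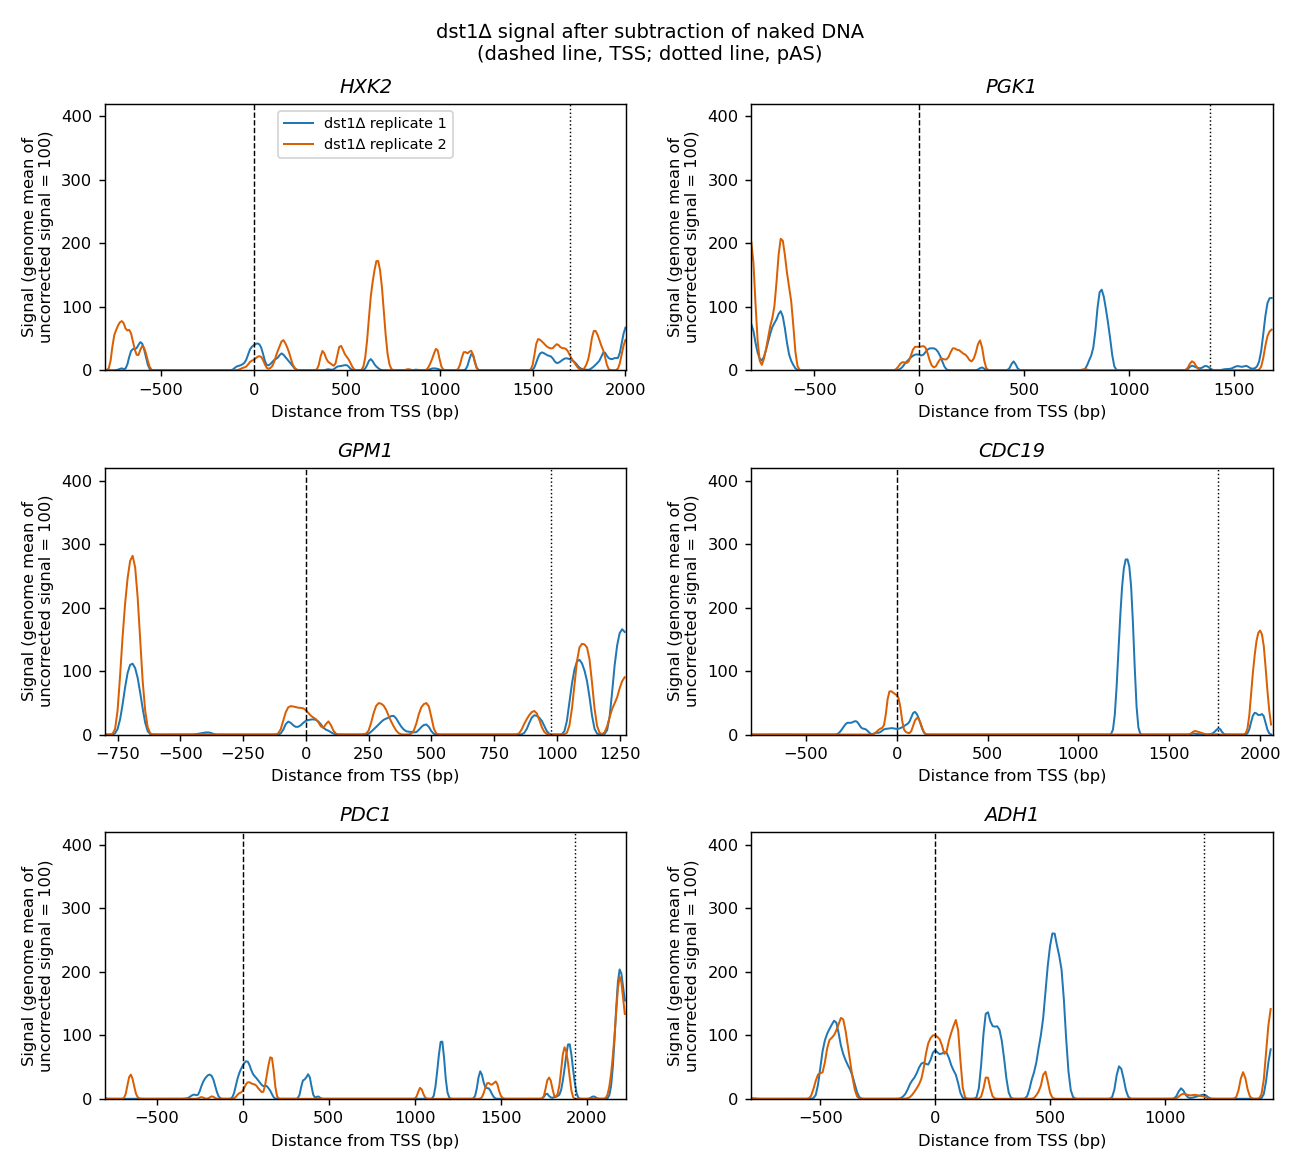
dst1∆ signal left after subtraction of the naked DNA signal, with negative values set to 0, by distance from the TSS in bp for replicate 1 (blue) and replicate 2 (orange). The axis is on the scale of the uncorrected signal, with a genome mean of 100. The gene body signal has a median over the 6 genes of 9.84 in replicate 1 and 9.18 in replicate 2. Peaks inside the genes are mostly seen in a single replicate, as at 663 bp in HXK2 (replicate 2) and at 1265 bp in CDC19 (replicate 1).

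The study used naked DNA as the background of its chromatin signals within DANPOS, and a plain subtraction was made here in its place, with negative values set to 0. The corrected gene body signal was 6.37 in replicate 1 and 19.7 in replicate 2 at *HXK2*. It was 9.41 and 6.02 at *PGK1*, and 7.22 and 11.3 at *GPM1*. All these values were low, since the genome means after correction were 34.8 and 50.4.

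At *CDC19* the corrected gene body signal was 14.8 in replicate 1 and 1.85 in replicate 2. *PDC1* had 10.3 and 7.09, and *ADH1* had 40.3 and 12.2. The median of the 6 genes was 9.84 in replicate 1 and 9.18 in replicate 2 (mean 9.51 ± 0.47, SD, n = 2), against 37.2 and 51.6 over all genes. Every gene except *ADH1* in replicate 1 was below the all-gene median in each replicate, and *CDC19* in replicate 2 exceeded only 0.30% of all genes.

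As a share of the signal before correction, the median of the 6 gene bodies was 7.58% in replicate 1 and 6.60% in replicate 2, against 37.2% and 51.5% over all genes. *PGK1* kept 3.89% in replicate 1 and 6.36% in replicate 2. *HXK2* kept 7.13% and 23.2%, the highest share of the 6 genes in replicate 2. A gene with a strong naked DNA signal loses more by the subtraction whatever its chromatin, so a low value here is in part a property of the naked DNA. When a weight of 0.5 was given to the naked DNA, the median gene body signal of the 6 genes was 43.9.

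Promoters after correction had 6.76 in replicate 1 and 13.3 in replicate 2 at *HXK2*, 14.5 and 30.5 at *PGK1*, and 12 and 30.7 at *GPM1*. *CDC19* had 3.96 and 5.41, *PDC1* had 6.37 and 2.69, and *ADH1* had 23.8 and 24.0. The median was 9.40 in replicate 1 and 18.7 in replicate 2, against 30.9 and 44.9 over all genes, and all 6 were below the all-gene median in both. *CDC19* and *PDC1* were the lowest pair in both replicates.

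Past the pAS the corrected medians were 18.4 and 31.2, against 29.2 and 38.4 over all genes. *GPM1* had 58.4 and 50.7 there, above the all-gene median in both replicates, and *ADH1* had 7.08 and 18.8, below it in both.

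Nucleosomes were read as peaks of the smoothed signal with a height of at least 20. Before correction the 6 gene bodies held 38 peaks in replicate 1 and 50 in replicate 2. Of these, 17 lay within 20 bp of a peak of the other replicate, which is 44.7% of those of replicate 1 and 34.0% of those of replicate 2, against 70.9% and 70.2% over all genes. Of the replicate 1 peaks 42.1% lay within 20 bp of a naked DNA peak (all genes 27.7%), and of the replicate 2 peaks 16.0% did (all genes 20.1%). The replicates therefore shared fewer positions in these genes than over all genes, and replicate 1 shared more with naked DNA.

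In the promoters 6 peaks were shared, of 18 in replicate 1 and 12 in replicate 2, which is 33.3% and 50.0% against 78.6% and 80.8% over all genes. Of the replicate 1 peaks 61.1% lay at a naked DNA peak (all genes 25.6%). After correction 3 promoter peaks were shared, of 5 in replicate 1 and 8 in replicate 2, which is 60.0% and 37.5% against 73.6% and 80.1%. After correction 19 peaks were called in the 6 gene bodies in each replicate, 4 of them shared, and some had no counterpart before correction. This is 21.1% of either replicate, against 66.0% and 70.2% over all genes. *CDC19* had no peak in its gene body in replicate 2 after correction and 2 in replicate 1.

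The shared ones could be placed. In *HXK2* the corrected peaks at 150 bp in replicate 1 and 158 bp in replicate 2 matched, as did those at 1560 and 1546 bp. In *GPM1* the peaks at 916 and 905 bp matched, and in *ADH1* those at 239 and 225 bp. Their heights in replicate 1 and replicate 2 were 22.8 and 40.8, and 25.4 and 44.0, at *HXK2*. They were 25.6 and 30.9 at *GPM1*, and 121 and 20.4 at *ADH1*. Each gene body pair was thus near the limit of 20 in at least 1 replicate. Outside the gene bodies 3 pairs lay upstream, at 615 and 605 bp from the TSS of *HXK2*, 668 and 653 bp from that of *PGK1* and 692 and 694 bp from that of *GPM1*. Past the pAS 4 pairs lay at 1679 and 1684 bp from the TSS of *PGK1*, 1090 and 1105 bp from that of *GPM1*, 1987 and 1997 bp from that of *CDC19* and 2194 and 2192 bp from that of *PDC1*. The peak upstream of *GPM1* had heights of 98.5 in replicate 1 and 248 in replicate 2, and that downstream of *PDC1* had 175 and 163. The latter lay 266 and 264 bp past the pAS of *PDC1*, beyond the TSS of *TRX1* at 192 bp.

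The first peak at or past the TSS was low after correction. Its position could differ between the replicates, as at *GPM1* (23 bp in replicate 1 and 297 bp in replicate 2) and *HXK2* (14 and 158 bp), so the heights are not those of the same nucleosome throughout. In replicate 1 the height was 39.2 at *HXK2*, 33.0 at *PGK1*, 22.5 at *GPM1*, 29.9 at *CDC19*, 54.7 at *PDC1* and 72.1 at *ADH1*, where all genes had a median of 103. In replicate 2 it was 40.8, 36.3, 43.7, 24.1 and 103 at *HXK2*, *PGK1*, *GPM1*, *PDC1* and *ADH1*, and *CDC19* had none, where all genes had a median of 154. All measured heights were below the all-gene median of their library.

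As a score of fuzziness, the spread (SD) of the corrected signal over the 100 bp on either side of a peak was taken. Its median over the gene bodies of the 6 genes was 32.6 bp in replicate 1 and 29.5 bp in replicate 2 (mean 31.1), against 29.6 and 30.0 bp over all genes. *PGK1* had 33.6 and 44.7 bp, *GPM1* had 34.1 and 20.6 bp and *ADH1* had 31.5 and 19.1 bp. After correction the members lay on both sides of the all-gene value, and each replicate rested on 0 to 6 peaks per gene. Before correction the median score was 48.3 bp in replicate 1 and 50.4 bp in replicate 2, against 43.7 and 42.0 bp over all genes. All 6 genes were above the all-gene median in both replicates. In naked DNA 5 of the 6 were, with a median of 48.7 bp against 45.4 bp.

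Other genes of glucose metabolism were read from a list of 42 genes of uptake, glycolysis, fermentation and its branches, of which 21 had a single listed TSS. Their promoters had medians of 100.7 in naked DNA, 82.5 in replicate 1 and 77.2 in replicate 2, near those of all genes. Their gene bodies had medians of 123, 119 and 108, and after correction 38.6 and 44.9. After correction these 21 genes were thus near the medians of all genes, 37.2 and 51.6, where the 6 genes were low. The glycolytic and fermentation genes *PGI1*, *PFK1*, *PFK2*, *FBA1*, *TPI1*, *TDH1*, *TDH2*, *TDH3*, *ENO1*, *ENO2* and *PDC5* were on the list but not among the 21. The medians therefore do not describe the rest of the route from glucose to ethanol.

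Both replicates were at least 2-fold below naked DNA in 3 of these 21 promoters (all genes 4.67%), those of the glucose transporters *HXT1* and *HXT5* and of the glucose sensor *RGT2*. *HXT1*, the transporter induced by high glucose, had 61.8 in naked DNA, 22 in replicate 1 and 11 in replicate 2. *RGT2* had 83.9, 33.0 and 24.4, and *HXT5* had 194, 73 and 57.5. *GCR2*, the partner of the activator Gcr1, was the only promoter of the 21 at least 2-fold above naked DNA in both replicates (all genes 9.74%). It had 15.5, 34.6 and 54.2.

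In both replicates no gene body of the 21 was at least 2-fold below naked DNA (all genes 1.01%). At least 2-fold above it in both were 3 (all genes 9.44%). *HXT4*, a glucose transporter, had 30.4 in naked DNA, 93.4 in replicate 1 and 108 in replicate 2. *PFK26* and *PFK27*, the kinases that make fructose 2,6-bisphosphate, had 31.9, 69.9 and 103, and 30.9, 67.7 and 71.5. In these genes naked DNA was low, the opposite of the 6 genes. Past the pAS 3 of the 21, *GPD2*, *RGT2* and *SNF3*, were at least 2-fold below naked DNA in both replicates (all genes 5.73%). There 3 others, *FBP26*, *HXT2* and *HXT4*, were at least 2-fold above it (all genes 28.0%).

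*GPP1*, a glycerol phosphatase, had the same kind of promoter values as *HXK2* and *GPM1*, with 287 in naked DNA, 195 in replicate 1 and 20.7 in replicate 2. It was 1 of 4 genes of the 21 whose promoters were at least 2-fold apart between the replicates, with *GPP2*, *GPD2* and *ADH4* (all genes 14.8%). *GPD2*, which makes glycerol 3-phosphate, had a gene body signal of 334, 228 and 110, the only one of the 21 that far apart (all genes 4.01%).

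The 124 highly transcribed genes that were neither among the 6 nor ribosomal protein genes had gene body medians of 98.9 in naked DNA, 97.8 in replicate 1 and 97.2 in replicate 2, and 28.5 and 43.0 after correction. Of their 124 promoters 9 were at least 2-fold below naked DNA in both replicates (all genes 4.67%) and 28 were at least 2-fold apart between replicates (all genes 14.8%). Among the 57 ribosomal protein genes these counts were 2 and 20, and their gene body medians were 81.2, 71.9 and 70.5. The 379 TATA genes, the list that held all 6, had gene body medians of 126, 111 and 113, and their counts were 30 and 80. None of these lists had the naked DNA gene body signal of the 6 genes, whose median was 295.

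The 3 genes most like the median of the 6 over the 9 signals, by Euclidean distance on the log2 scale, were *NDI1*, *UTR4* and *ECM21*, at distances of 1.12, 1.41 and 1.45, where the median gene was at 3.73. *NDI1* had gene body signals of 176, 186 and 97.9, and *UTR4* had 378, 291 and 137. Of the 6 genes themselves *PDC1* was nearest to their median (1.26) and *ADH1* farthest (3.65).

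Reads that matched more than 1 place had been left out before deposition, so genes with close copies could be undercounted. *ADH1*, which has a near copy in *ADH2*, had a stretch of 100 bp in its gene body in which no read of any library started, longer than in 98.7% of all genes. In the other 5 genes the longest such stretch was between 12 and 22 bp, and the median of all genes was 19 bp. The signals of *ADH1* over that stretch are therefore uncertain, and its part in the values above was not tested.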

How the data were processed

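The data were MNase-seq reads of 1 naked DNA and 2 *dst1∆* chromatin libraries. The authors aligned single-end reads to sacCer2 with GEM (version not given in the sources used here), allowing some mismatches, and dropped ambiguous ones. What they deposited is 1 line per mapped read with its position and strand, repeated reads included, and the display score in each line was not used. The DANPOS step of the study was not repeated.

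At each position and strand no more than 11, 9 and 9 reads were used, a Poisson limit with a tail of 1e-10, which kept 65.2%, 70.5% and 72.5%. Each read was moved 73 bp to its fragment centre, and the 81 bp around it were counted and scaled to a genome mean of 100. Windows were the 800 bp before the TSS, TSS to pAS, and the 300 bp after it. Peaks were sought after Gaussian smoothing (SD 20 bp) and were at least 20 high and 100 bp apart. Intervals are 95% Poisson limits of the fragments in a window and cover counting error only, as reads carried no molecular identifiers. They follow the fragment count and not the mean of the smoothed signal, so they need not be centred on the value given. The steps were tested on simulated data.

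The design, with 1 library of naked DNA and 2 of *dst1∆*, allowed no p-value. Calls need both replicates past 2-fold. Every member is named, as are all genes counted in the wider list of 42, and the 3 nearest genes by distance. The criterion for the members used no measured value, but members and lists were chosen with earlier results of these data known. Symbols are those of RefSeq (assembly R64), and coordinates those of the site table. A promoter motif search was planned and not run, as no sequence was used here. Alternatives were no cap, 1 read per strand position, 147 bp per centre, a genome median of 100, a promoter of 500 bp, a correction weight of 0.5 or none, a peak height of 50, a pseudocount of 10, and each replicate left out. The software was matplotlib 3.10.9, scipy 1.17.1, numpy 2.4.6 and pandas 2.3.3 under Python 3.11.15.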

Additional observations from a re-analysis of the deposited data

How the results depend on the processing

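The medians over the 6 genes moved with several settings. Without a cap on repeated reads, the naked DNA promoter median was 99.2 (109 as reported) and the corrected gene body median 7.19 (9.51 as reported). With 1 read per strand position, the naked DNA gene body median was 216 (295 as reported, all genes 104), the corrected gene body median 10.1, the fuzziness median 35.1 bp, and 1 of the 18 ratios to naked DNA was past 2-fold in both replicates, against 5 as reported, so that the *GPM1* gene body and the *HXK2*, *PGK1* and *PDC1* promoters were lost. The 1 left was the *CDC19* promoter (all genes 1.01%). With the full nucleosome length counted around each centre, the corrected gene body median was 5.55 and the fuzziness median 37.1 bp. Scaled to a genome median of 100, the naked DNA medians were 330 for the promoter (all genes 297) and 897 for the gene body (all genes 282). The *dst1∆* gene body median before correction was 245, that after correction 6.88, the fuzziness median 34.0 bp, and 12 ratios were past 2-fold. All were below naked DNA, at 5 of the 6 promoters (all genes 37.5%), all 6 gene bodies (all genes 25.4%) and the 3′ end of *ADH1* (all genes 21.4%). That scaling also moved the all-gene median ratio, in gene bodies from 0.10 to -0.78 in replicate 1 and from 0.14 to -0.69 in replicate 2, and the members' medians were then -1.46 and -2.26. With a promoter of 500 bp the naked DNA promoter median was 138 (all genes 71.7) and the corrected one 5.48. Of the 6 promoters 5 were then at least 2-fold below naked DNA in both replicates (all genes 9.18%). When a weight of 0.5 was given to the naked DNA, the corrected promoter median was 22.3, the gene body median 43.9 and the fuzziness 38.1 bp, and with no correction they were 45.9, 148 and 49.4 bp. Leaving out a replicate gave between 7 and 10 ratios past 2-fold, by the looser rule of the remaining replicate alone. The share of all genes under that rule was not computed. The cause of these shifts was not tested. No called ratio changed sign under any alternative, and of the 98 alternative values of the 14 ratios below 0, 96 stayed below 0. These counts say little for settings that could not have turned a sign. A larger pseudocount keeps the sign of each replicate's ratio, and scaling to the genome median lowered the ratios. A called ratio has both replicates on the same side, so leaving 1 of them out could not turn it. No paired analysis was possible because naked DNA has a single library. Low windows rest on few fragments, as the *CDC19* promoter in replicate 2 with 51.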
